A study of Mus musculus with 6 samples.

Results

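The 10 genes described here encode the adaptors, kinases and regulators that sit directly below Toll-like receptors and receptors of the interleukin-1 family: Myd88, Tirap, Irak1, Irak2, Irak3, Irak4, Tollip, Peli1, Ticam1 and Ticam2. They were chosen by gene symbol, and all 10 were found among the 24062 genes of the count table. RNA of mouse hematopoietic cells was sequenced after transformation by a retrovirus that carries MLL-AF9, an oncogenic fusion found in acute myeloid leukemia, in a study of A20 deletion. The KO-labelled group held 3 libraries from A20 f/f Rosa Cre-ER cells, and the WT-labelled group held 3 libraries from A20 +/+ Rosa Cre-ER cells. Lineage negative cells of both genotypes carried the tamoxifen-activated Cre and the oncogene, grew in medium with IL-6, IL-3 and SCF at 10 ng/mL each, and received 1 µM 4-hydroxytamoxifen for 48 h. No culture without tamoxifen was analysed here, and the labels do not say whether a group is more than 1 transduced line. They also leave the origin of replicates unstated, so p-values here reflect spread among libraries that may be only technical.

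Toll-like receptors recognise microbial products, and the interleukin-1 receptor family senses IL-1, IL-18 and IL-33. Both use a shared cytoplasmic TIR domain. MyD88 binds most of these receptors and gathers the IRAK kinases, which activate the ubiquitin ligase TRAF6 and then NF-κB and MAP kinases. TRIF, encoded by Ticam1, serves TLR3 and TLR4 and leads to IRF3 and interferon-β as well as NF-κB. A20, encoded by Tnfaip3, removes or edits ubiquitin chains on TRAF6 and RIPK1 and so limits both arms.

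The targeted gene went against its label. Tnfaip3 had 100.1, 74.1 and 79.1 CPM in KO-labelled libraries, against 7.39, 8.67 and 8.24 CPM in WT-labelled libraries, where CPM is a library's count for a gene relative to its TMM-scaled total. The counts cover all exons, so this total does not measure the deletion. Whether the labels of the groups were exchanged was not tested, and an exchange would turn the direction of every difference given here, so the groups are called by their labels throughout. The libraries held 16113320 to 25415274 counted reads. Replicate 1 stood apart in each group. Gapdh, a glycolytic enzyme gene, reached 2716, 254 and 248 CPM in KO-labelled libraries and 2645, 181 and 167 CPM in WT-labelled libraries. The chi-square statistic divided by its degrees of freedom was 2.37 between KO-labelled replicates 2 and 3, against 94.5 and 79.7 between these and replicate 1, and 25.2 between WT-labelled replicates 2 and 3. Results that rest on single libraries are given with and without them.

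Among the 10 genes, Ticam2 and Irak2 rose most in KO-labelled cells, by 3.17 and 2.44 on the log2 scale, Irak4 and Ticam1 rose by 0.56 and 0.57, and Irak3 fell by 1.15. Myd88, Tirap, Irak1, Tollip and Peli1 did not pass the test. A gene is called here when its p from the quasi-likelihood test of edgeR, adjusted by Benjamini-Hochberg over all 12126 genes tested, is under 0.05. Thus 4 of 10 were called higher and 1 lower, beside 13.7% higher and 13.7% lower over all genes tested (27.3% in either direction). The median log2 fold change was 0.12 over the 10 genes and −0.04 over all genes tested. All 10 passed the low-count filter. In bulk RNA, fewer cells of a type and less RNA per cell cannot be told apart.

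In mm10, Irak2 lies on chromosome 6 at 113638467 to 113695026 (plus strand), Irak3 on chromosome 10 at 120141648 to 120202130 (minus strand), Irak4 on chromosome 15 at 94543643 to 94581815 (plus strand), Ticam1 on chromosome 17 at 56269319 to 56276786 (minus strand) and Myd88 on chromosome 9 at 119335934 to 119341411 (minus strand). RefSeq promoter windows on GRCm38.p6, the assembly behind mm10, reach from 250 bases before to 50 after a start. They were taken for 9 of the 10 genes (12 windows). Ticam2, which rose most of the 10, was left out, so its promoter was not searched. Windows of 3 genes are printed 5′ to 3′, in capitals where a searched motif matched. These are Irak2, which rose most among the 9, Irak3, which fell (the window at its outermost start), and the central adaptor Myd88.
Irak2 (chr6:113638217-113638516, plus strand): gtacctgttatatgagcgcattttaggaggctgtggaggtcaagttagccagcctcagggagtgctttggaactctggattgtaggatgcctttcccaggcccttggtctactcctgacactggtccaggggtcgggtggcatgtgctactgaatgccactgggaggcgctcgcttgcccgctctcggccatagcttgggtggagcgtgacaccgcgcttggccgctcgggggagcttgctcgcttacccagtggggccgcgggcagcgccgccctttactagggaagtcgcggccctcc
Irak3 (chr10:120202081-120202380, minus strand): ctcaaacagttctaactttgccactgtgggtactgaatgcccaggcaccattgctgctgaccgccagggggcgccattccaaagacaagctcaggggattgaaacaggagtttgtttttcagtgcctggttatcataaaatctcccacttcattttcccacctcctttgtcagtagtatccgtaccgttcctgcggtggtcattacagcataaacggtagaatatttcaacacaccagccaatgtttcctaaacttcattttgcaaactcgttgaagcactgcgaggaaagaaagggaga
Myd88 (chr9:119339969-119340268, minus strand): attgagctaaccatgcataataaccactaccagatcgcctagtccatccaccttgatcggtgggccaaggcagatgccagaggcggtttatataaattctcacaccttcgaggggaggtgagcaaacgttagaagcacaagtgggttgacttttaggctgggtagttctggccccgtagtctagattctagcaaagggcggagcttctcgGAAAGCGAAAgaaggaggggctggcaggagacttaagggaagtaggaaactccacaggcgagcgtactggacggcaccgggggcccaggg
Both strands were searched for the NF-κB consensus, the AP-1 motif TGANTCA and a pair of interferon response half-sites, GAAANNGAAA. The only match in the 12 windows was GAAAGCGAAA, an interferon-type pair that begins 40 bases before the Myd88 start. Over 32851 promoter windows, 4.51% held the NF-κB consensus, 7.81% the AP-1 motif and 3.44% the half-site pair. A match is a description of letters, and no match says only that these letters are not in these windows.

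**Figure D1:**
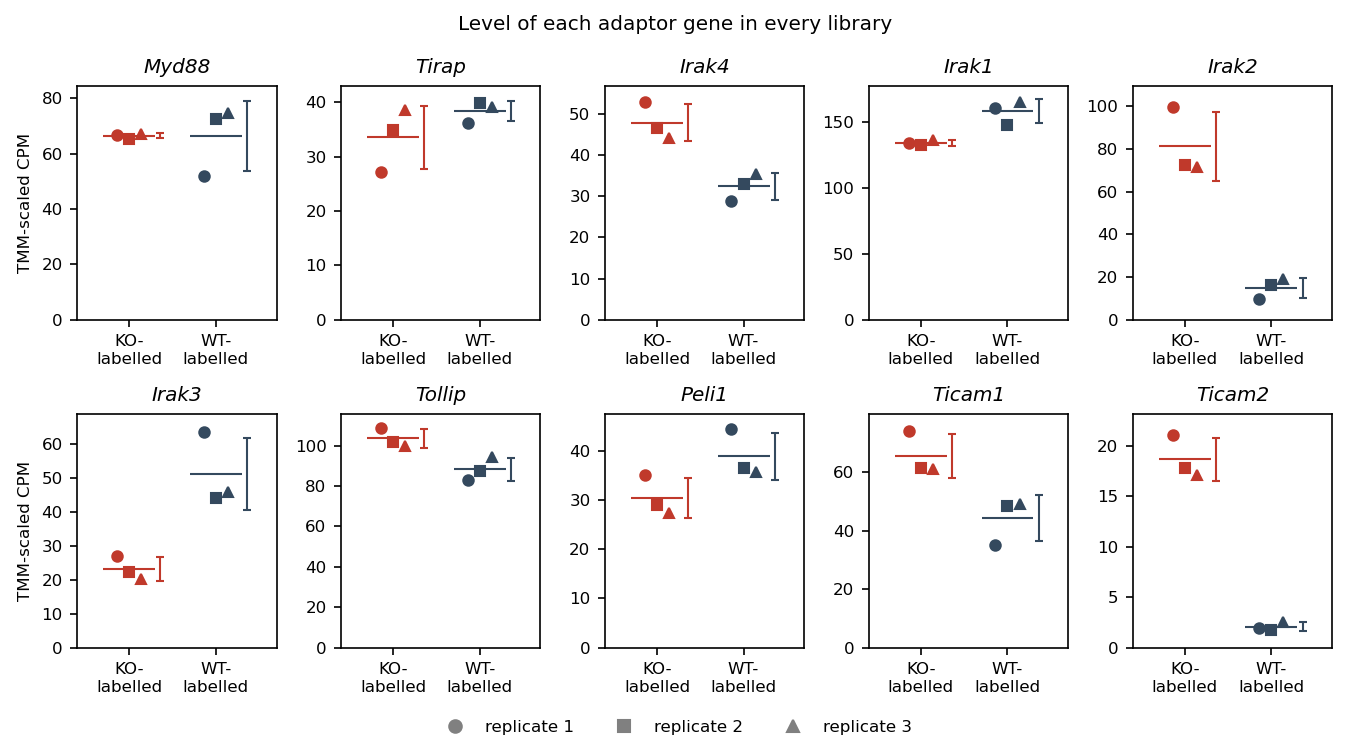
TMM-scaled CPM (y axis, from 0) of the 10 genes in each library, KO-labelled left and WT-labelled right in each panel; symbols mark replicates, horizontal lines the group mean and bars ± 1 SD (n = 3). Ticam2 and Irak2 sit far higher in all 3 KO-labelled libraries, Irak3 lower, and the Myd88 and Tirap values of the groups overlap.

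Neither receptor-proximal adaptor of the MyD88 arm passed the test. Myd88, the central adaptor, had 66.9, 65.5 and 67.1 CPM in KO-labelled libraries and 51.9, 72.6 and 74.9 CPM in WT-labelled libraries. The KO-labelled values lay inside the WT-labelled range, and WT-labelled replicate 1 was the low one. The log2 fold change was 0.0016 (95% interval −0.38 to 0.38; adjusted p = 1.00 by edgeR), and its sign differed between replicates: the KO/WT ratio was 0.37 on the log2 scale for the replicate 1 libraries and −0.15 for replicates 2 and 3. Tirap, which bridges MyD88 to TLR2 and TLR4, had 27.2, 34.8 and 38.6 CPM in KO-labelled libraries and 36.3, 39.8 and 39.1 CPM in WT-labelled libraries. These groups overlapped too, with KO-labelled replicate 1 the lowest of the 6 (log2 fold change −0.20, 95% interval −0.57 to 0.18; adjusted p = 0.41).

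Of the 4 IRAK genes 2 rose, 1 fell and 1 did not pass the test. Irak4, the kinase recruited first to MyD88, had 52.9, 46.6 and 44.0 CPM in KO-labelled libraries and 28.9, 33.1 and 35.3 CPM in WT-labelled libraries. All KO-labelled values lay above all WT-labelled values, with a log2 fold change of 0.56 (SE 0.14; adjusted p = 0.022). The call was lost when KO-labelled replicate 1, 2 or 3 was dropped, which gave an adjusted p of 0.068, 0.080 and 0.057, or WT-labelled replicate 2 (0.067), within a range of 0.0058 to 0.13 over 19 alternatives. The direction was the same in the replicate 1 libraries (0.87) and in replicates 2 and 3 (0.41 on the log2 scale).

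Irak1, the kinase that IRAK4 phosphorylates, had the highest CPM of the 10 genes and did not pass the test. It had 134, 132 and 136 CPM in KO-labelled libraries and 161, 148 and 165 CPM in WT-labelled libraries. The groups did not overlap, as for 47.6% of all genes tested, but the difference of −0.24 on the log2 scale (95% interval −0.49 to 0.02) did not pass (adjusted p = 0.15). Irak1 lies on chromosome X, and the groups differed in sex-linked transcripts. Xist, the RNA of the inactive X, had 0, 4.76 and 4.77 CPM in KO-labelled libraries and 564, 2109 and 2089.6 CPM in WT-labelled libraries, whereas the Y-linked Ddx3y averaged 83.3 ± 5.43 CPM in KO-labelled and 0.47 ± 0.42 CPM in WT-labelled libraries (SD, n = 3). Donor sex and genotype label cannot be told apart here.

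Irak2, a kinase-like IRAK that sustains late signalling, was the member of this family that rose most. It had 99.8, 72.6 and 71.4 CPM in KO-labelled libraries and 9.85, 16.1 and 19.1 CPM in WT-labelled libraries. Every KO-labelled library exceeded every WT-labelled library, and replicate 1 was the highest in the KO-labelled group and the lowest in the WT-labelled group. Mean CPM was 5.42-fold higher (log2 fold change 2.44, SE 0.27; adjusted p = 0.0010). The call held under all 19 alternatives, with adjusted p up to 0.017. Of the Irak2 31-mers, 11.02% occur in transcripts of other genes. The log2 KO/WT ratio was 3.34 in the replicate 1 libraries and 2.03 in replicates 2 and 3.

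Irak3, also called IRAK-M, is a brake that holds IRAK1 and IRAK4 at MyD88 and is known mainly from monocytes and macrophages. It had 26.9, 22.3 and 20.1 CPM in KO-labelled libraries and 63.4, 44.0 and 45.9 CPM in WT-labelled libraries. The groups were well apart, and replicate 1 was the highest within each. Mean CPM was 0.45 of the WT-labelled level (log2 fold change −1.15, SE 0.19; adjusted p = 0.0055), with log2 ratios of −1.24 in the replicate 1 libraries and −1.09 in replicates 2 and 3. The call held whichever library was left out and was lost under 1 of 19 alternatives, when replicates 2 and 3 of each group were added up as 1 sample (adjusted p = 0.061; range 2.8e-06 to 0.061).

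**Figure D2:**
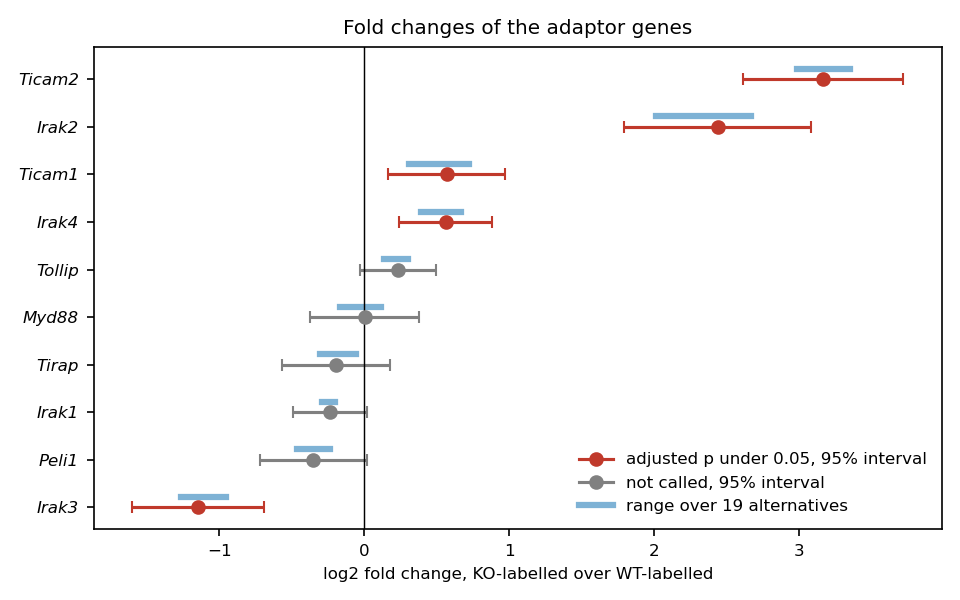
Log2 fold change, KO-labelled over WT-labelled (x axis), of the 10 genes with its 95% interval (points and whiskers; red where the adjusted p is under 0.05) and, as a bar above each, the range over 19 alternative fits. Ticam2 and Irak2 lie far right of 0 and Irak3 left of it under all alternatives, and the Myd88 range spans 0.

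The makeup of the IRAK transcripts leaned to Irak2 in KO-labelled and to Irak3 in WT-labelled libraries. CPM was divided by the exonic length of each gene, and each share was taken of the 4 IRAK genes' sum in the same library. Irak2 made up 36.9%, 31.1% and 30.9% of it in KO-labelled libraries, against 4.42%, 7.97% and 8.58% in WT-labelled libraries. Irak3 made up 9.89%, 9.50% and 8.62% in KO-labelled libraries and 28.3%, 21.7% and 20.5% in WT-labelled libraries. Thus Irak2 outnumbered Irak3 by 3.73-, 3.28- and 3.59-fold in KO-labelled libraries, whereas the ratio was 0.16, 0.37 and 0.42 in WT-labelled libraries. Irak1 averaged 44.6 ± 4.00% in KO-labelled and 59.4 ± 0.83% in WT-labelled libraries, and Irak4 averaged 13.1 ± 0.32% in KO-labelled and 10.1 ± 1.24% in WT-labelled libraries (SD, n = 3). None of the 4 shares overlapped between groups, and by CPM 47.6% of all genes tested did not overlap either. Each share gave an exact two-sided permutation p of 0.1 (0.1 after Benjamini-Hochberg adjustment over 4), the smallest that 3 against 3 libraries allow. The 4 shares are parts of the same sum, so each depends on the others and they are not separate results. The Irak1 level itself did not pass the test (log2 fold change −0.24; adjusted p = 0.15 by edgeR).

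**Figure D3:**
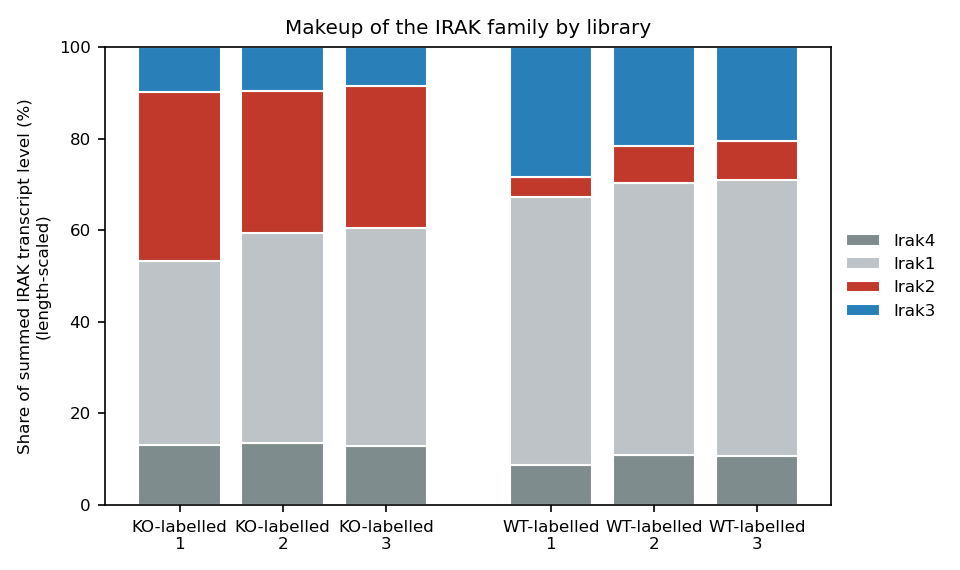
Share of each IRAK gene in the summed length-scaled level of the 4 genes (y axis, percent) in each library, KO-labelled left and WT-labelled right. The Irak2 band is 30.9% to 36.9% in KO-labelled and 4.42% to 8.58% in WT-labelled libraries, and the Irak3 band is narrower in KO-labelled libraries.

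The other regulators of the MyD88 arm did not pass the test. Tollip, an adaptor that binds IRAK1 and restrains it, had 109, 102 and 99.8 CPM in KO-labelled libraries and 83.1, 87.6 and 94.2 CPM in WT-labelled libraries. The groups did not overlap, but the log2 fold change of 0.23 (95% interval −0.03 to 0.49) did not pass (adjusted p = 0.17). Peli1, a ubiquitin ligase of the Pellino family that modifies IRAK1 and acts in the TRIF arm, had 35.1, 29.0 and 27.3 CPM in KO-labelled libraries and 44.3, 36.5 and 35.7 CPM in WT-labelled libraries. Again the groups did not overlap, and the log2 fold change was −0.35 (95% interval −0.72 to 0.02; adjusted p = 0.14). Over the 10 genes 5 lay wholly above and 3 wholly below in KO-labelled libraries, beside 24.1% above and 23.5% below over all genes tested.

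Both adaptors of the TRIF arm were called higher. Ticam2, which encodes TRAM, the bridge between TLR4 and TRIF, had 21.1, 17.8 and 17.1 CPM in KO-labelled libraries and 1.92, 1.72 and 2.58 CPM in WT-labelled libraries. The lowest KO-labelled value was far above the highest WT-labelled value. Mean CPM was 9.01-fold higher (log2 fold change 3.17, SE 0.24; adjusted p = 1.9e-04), and the call held under all 19 alternatives (adjusted p up to 0.0081). The log2 ratio was 3.46 in the replicate 1 libraries and 3.02 in replicates 2 and 3. On chromosome 18, exons of Ticam2 overlap those of its neighbour Tmed7 on the same strand over 838 bases, and 15.8% of the Ticam2 31-mers occur in transcripts of other genes. Tmed7 itself had 216, 197 and 197 CPM in KO-labelled libraries and 187, 229 and 191 CPM in WT-labelled libraries (log2 fold change 0.0045; adjusted p = 0.99).

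Ticam1, which encodes TRIF, had 74.2, 61.3 and 60.9 CPM in KO-labelled libraries and 35.1, 48.5 and 49.1 CPM in WT-labelled libraries. The groups did not overlap, with WT-labelled replicate 1 lowest and KO-labelled replicate 1 highest. This gave a log2 fold change of 0.57 (SE 0.17; adjusted p = 0.047). Without KO-labelled replicate 1, 2 or 3 or WT-labelled replicate 2 or 3 the call was lost (adjusted p from 0.070 to 0.14), as it was with RLE size factors (0.052), upper-quartile scaling (0.062), library totals (0.075), genes of at least 5 CPM only (0.058) and a term for replicate 1 (0.059). Over 19 alternatives the adjusted p ranged from 0.015 to 0.15. The log2 ratio was 1.08 in the replicate 1 libraries and 0.33 in replicates 2 and 3.

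Levels can be compared between genes only per length, so CPM was also divided by exonic length in kilobases (RPKM). In KO-labelled libraries Irak1 (34.0 RPKM) and Myd88 (33.9) were highest and did not differ beyond their ranges. Irak2 (25.4), Tollip (23.9) and Ticam1 (21.9) followed, with neighbours that overlapped, and then came Irak4 (10.1), Peli1 (7.44), Irak3 (7.18), Tirap (7.09) and Ticam2 (4.44). Ranges of Irak4 and Peli1, and of Tirap and Ticam2, were apart, and those of Peli1, Irak3 and Tirap overlapped in that order. In WT-labelled libraries Irak1 (40.0 RPKM) and Myd88 (33.9) overlapped at the top, followed by Tollip (20.4), Irak3 (15.9) and Ticam1 (14.8), whose neighbours overlapped. Below them Peli1 (9.49), Tirap (8.12), Irak4 (6.82), Irak2 (4.69) and Ticam2 (0.49) were each apart from the next. By rank among the 10, Irak2 was number 3 in KO-labelled and number 9 in WT-labelled cells, and Irak3 was number 8 in KO-labelled and number 4 in WT-labelled cells.

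Around the adaptors, the receptors were mixed. Of 26 listed TIR receptors and coreceptors 19 were tested, of which 3 were called higher and 4 lower (median log2 fold change −0.55). The share over all genes tested was 13.7% in each direction. Without WT-labelled replicate 1, 6 receptors were called higher and 9 lower. In that setting 42.8% of all genes tested were called in either direction, against 27.3% with all libraries. Tlr2, a receptor for bacterial lipoproteins, averaged 271 ± 67.5 CPM in KO-labelled and 35.9 ± 12.5 CPM in WT-labelled libraries (SD, n = 3; adjusted p = 9.5e-04 by edgeR), and the coreceptor gene Cd14 had 518, 289.8 and 274 CPM in KO-labelled libraries and 9.89, 37.4 and 27.8 CPM in WT-labelled libraries (0.0024). Both subunits of the IL-18 receptor fell: Il18rap averaged 27.5 ± 7.41 CPM in KO-labelled and 107 ± 21.1 CPM in WT-labelled libraries (adjusted p = 0.0017), and Il18r1 had 0, 0.087 and 0.060 CPM in KO-labelled libraries against 4.17, 6.37 and 7.55 CPM in WT-labelled libraries (5.4e-04). Tlr4, the receptor that TRAM serves, had 76.9, 80.7 and 72.3 CPM in KO-labelled libraries and 34.4, 61.2 and 50.4 CPM in WT-labelled libraries and did not pass (adjusted p = 0.057). The remaining called receptors, named after their values were seen, were Il1rap, the shared IL-1 receptor subunit (log2 fold change 0.78; adjusted p = 0.0053), the inhibitory receptor gene Sigirr (−0.93; 0.0086) and Tlr12 (−4.58; 0.010), the last near 1 CPM or below in all libraries.

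Of 11 listed IL-1 family ligands and antagonists 6 were tested, with 3 called higher and 1 lower and a median of 1.13. Over all genes tested 13.7% were called in each direction. The antagonist gene Il1rn had 41.7, 29.0 and 30.98 CPM in KO-labelled libraries and 1.13, 5.22 and 6.26 CPM in WT-labelled libraries (adjusted p = 0.0080 by edgeR), and Il1b averaged 8.95 ± 0.41 CPM in KO-labelled and 1.57 ± 1.22 CPM in WT-labelled libraries (SD, n = 3; adjusted p = 0.044 by edgeR). Il1a averaged 4.33 ± 0.98 CPM in KO-labelled and 0.21 ± 0.36 CPM in WT-labelled libraries (0.026), whereas Il1f9 fell by 2.25 on the log2 scale (0.039). The number called higher was 1 without KO-labelled replicate 1, 2 or 3 or WT-labelled replicate 3. In those settings 7.60% to 9.86% of all genes tested were called higher. The number lower was 0 when any library other than WT-labelled replicate 1 was left out (limma-voom also gave 0). At an unadjusted p under 0.05 by edgeR, 3 were higher and 1 lower whichever library was left out (0 lower by limma-voom).

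Below the adaptors lie the kinase and ubiquitin steps. All 26 listed genes were tested, with 3 called higher and 3 lower and a median of 0.05, a share close to the 27.3% of all genes called in either direction. Irf5, a transcription factor that MyD88 activates, averaged 52.4 ± 10.1 CPM in KO-labelled and 18.9 ± 6.24 CPM in WT-labelled libraries (n = 3; adjusted p = 0.0084 by edgeR). Tab2, the ubiquitin-binding partner of the kinase TAK1, averaged 121 ± 2.00 CPM in KO-labelled and 194 ± 25.6 CPM in WT-labelled libraries (0.0096), Ripk1 110 ± 3.32 CPM in KO-labelled and 159 ± 4.13 CPM in WT-labelled libraries (0.011), and the IκB kinase gene Ikbkb 65.4 ± 1.88 CPM in KO-labelled and 97.5 ± 10.0 CPM in WT-labelled libraries (0.013). Traf6, the ligase just below the IRAKs, had 49.9, 55.2 and 49.1 CPM in KO-labelled libraries and 47.2, 44.3 and 54.2 CPM in WT-labelled libraries (log2 fold change 0.08; 0.69). The counts were 6 and 5 without WT-labelled replicate 1, where 42.8% of all genes tested were called in either direction. The number higher was 1 without KO-labelled replicate 1, 2 or 3 or WT-labelled replicate 2. The number lower was 0 by edgeR without KO-labelled replicate 2 or 3 (3 at an unadjusted p under 0.05 in both).

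Among 27 other adaptors and brakes of the pathway, all tested, 9 were called higher and 3 lower, with a median of 0.39. Over all genes tested 13.7% were called higher and 13.7% lower. Sigirr, among those called lower, was also counted with the receptors. Besides Tnfaip3, Nlrx1, a mitochondrial protein of the NLR family that restrains TRAF6 signalling, averaged 37.4 ± 7.61 CPM in KO-labelled and 1.41 ± 0.22 CPM in WT-labelled libraries (n = 3; adjusted p = 4.7e-05 by edgeR). Nlrc3 averaged 5.07 ± 0.27 CPM in KO-labelled and 0.46 ± 0.06 CPM in WT-labelled libraries (4.1e-04), and the A20 partner gene Tnip1 averaged 152 ± 18.5 CPM in KO-labelled and 56.5 ± 2.27 CPM in WT-labelled libraries (4.2e-04).

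Of genes that can respond to these pathways, early response genes linked to MyD88 and genes linked to TRIF were listed. The lists were chosen with earlier results of these data known. Whether MyD88 or TRIF signalling drove any change in them was not tested. Of 24 listed early response genes 19 were tested, and of these 12 rose, beside 13.7% of all genes tested, and 0 fell (0 also at an unadjusted p under 0.05, and 0 by DESeq2 and limma-voom), with a median of 1.84. Tnf averaged 85.2 ± 4.47 CPM in KO-labelled and 7.47 ± 1.15 CPM in WT-labelled libraries (n = 3; adjusted p = 3.0e-05 by edgeR), and Nfkbia averaged 202 ± 8.60 CPM in KO-labelled and 39.7 ± 10.3 CPM in WT-labelled libraries (4.1e-04). Nfkb2, an NF-κB subunit gene, averaged 116 ± 6.93 CPM in KO-labelled and 22.6 ± 7.47 CPM in WT-labelled libraries (9.4e-04), and the adhesion gene Icam1 159 ± 56.8 CPM in KO-labelled and 19.6 ± 6.63 CPM in WT-labelled libraries (0.0011). The number that rose was 7 without KO-labelled replicate 2 or 3, where 7.60% and 7.89% of all genes tested were called higher. At an unadjusted p under 0.05 by edgeR it was 12 in both settings and 13 with all libraries. Of 11 tested TRIF-linked genes of 16 listed, 3 were called higher and 1 lower, beside 13.7% of all genes in each direction, with a median of 0.93. Cxcl10 averaged 18.8 ± 5.86 CPM in KO-labelled and 1.02 ± 0.71 CPM in WT-labelled libraries (adjusted p = 0.0015), Ccl5 had 7.25, 7.01 and 6.74 CPM in KO-labelled and 0.13, 0.34 and 0 CPM in WT-labelled libraries (0.0020), and Rsad2 8.73 ± 3.91 CPM in KO-labelled and 2.08 ± 0.86 CPM in WT-labelled libraries (0.021). Ifit2 fell by 1.04 on the log2 scale (0.038), a call lost when any library other than WT-labelled replicate 1 was left out. Ifnb1, the gene for interferon-β, had no read in any library. The difference between the lists was not tested.

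**Figure D4:**
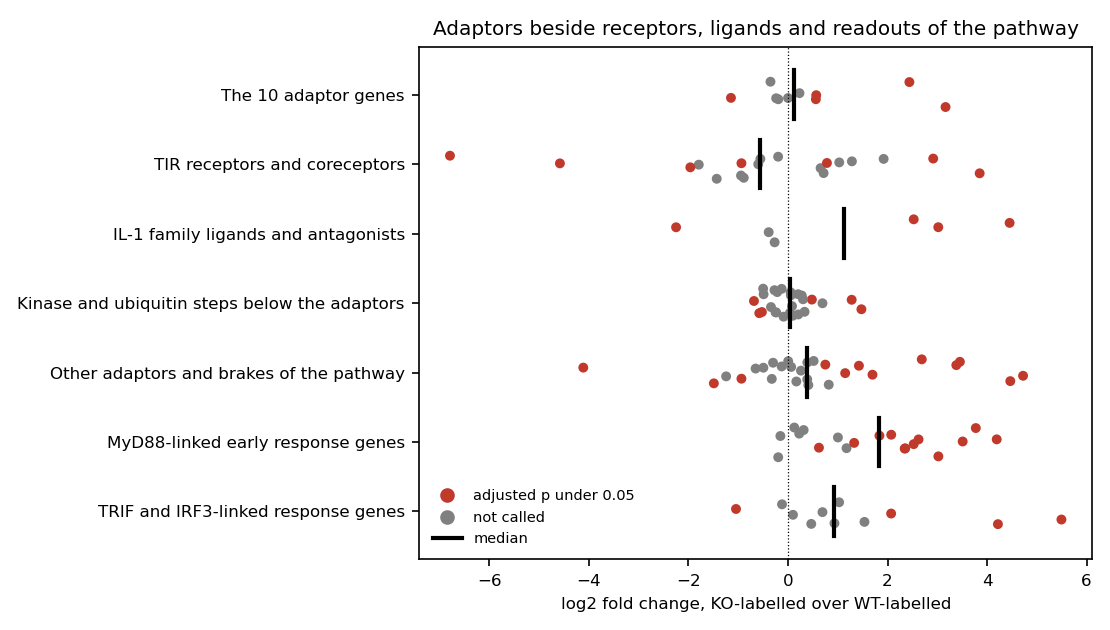
Log2 fold change, KO-labelled over WT-labelled (x axis), of every tested gene in the 10-gene set and in 6 lists of the pathway (rows); red points have an adjusted p under 0.05 and black bars are medians. Early response genes reach a median of 1.84 with 12 red points right of 0, and the kinase and ubiquitin steps have a median of 0.05.

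Profiles most like those of the 2 members with the smallest p-values were found by the root mean square difference of centred log2 CPM over the 6 libraries, among tested genes of at least 5 CPM. Nearest to Ticam2 were Ccrl2 (0.085), Prkcb (0.11) and Rasal3 (0.15), and nearest to Irak2 were Itgb2 (0.11), H2-DMb1 (0.12) and Nfkbia (0.16). Ccrl2, an atypical chemokine-binding receptor, had 24.6, 24.0 and 21.6 CPM in KO-labelled libraries and 2.75, 2.53 and 3.72 CPM in WT-labelled libraries. Itgb2, the β2 integrin chain, had 1077, 769 and 724 CPM in KO-labelled libraries and 97.5, 202 and 199 CPM in WT-labelled libraries.

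Progenitor markers fell in KO-labelled cells. Of 8 progenitor markers 0 were called higher (0 also at an unadjusted p under 0.05, and 0 by DESeq2 and limma-voom) and 7 lower. Over all genes tested 13.7% were called in each direction. The progenitor markers summed to 229 to 236 CPM in KO-labelled and 1404 to 1462 CPM in WT-labelled libraries. Of 12 monocyte and macrophage markers 11 were tested, with 2 higher and 3 lower, and they summed to 3503 to 6002 CPM in KO-labelled and 1316 to 5909 CPM in WT-labelled libraries. Of 11 neutrophil markers found, 8 were tested, with 2 higher and 2 lower, and they summed to 476 to 879 CPM in KO-labelled and 1487 to 2000 CPM in WT-labelled libraries. Dendritic cell markers summed to 3.70 to 7.71 CPM in KO-labelled and 22.6 to 45.1 CPM in WT-labelled libraries (Siglech at 0), and mast cell and basophil markers to 11.6 to 13.6 CPM in KO-labelled and 21.1 to 36.4 CPM in WT-labelled libraries (Fcer1a, Cma1, Tpsb2 and Prss34 at 0). Lymphocyte markers summed to 0.87 to 4.78 CPM in KO-labelled and 0 to 0.11 CPM in WT-labelled libraries (Cd3e, Cd8a, Ms4a1 and Ncr1 at 0), and erythroid and megakaryocyte markers to 2.09 to 2.55 CPM in KO-labelled and 27.6 to 42.2 CPM in WT-labelled libraries (Hba-a1 and Hbb-bs at 0). Fibroblast and endothelial markers summed to 64.3 to 107 CPM in KO-labelled and 259 to 331 CPM in WT-labelled libraries, nearly all of it Pecam1, which hematopoietic cells also express, with Dcn at 0. The progenitor markers Kit (100.4, 103 and 102 CPM in KO-labelled, 307, 351 and 403 CPM in WT-labelled libraries) and Meis1 were present in both groups. Means of the others in KO-labelled and WT-labelled libraries were 1.63 and 613 CPM for Cd34, 0.39 and 145 CPM for Mecom and 0.034 and 28.2 CPM for Hlf. They were 0.84 and 21.2 CPM for Flt3, 4.93 and 79.6 CPM for Gata2 and 17.8 and 95.2 CPM for Sox4. Kit and Meis1 thus made up most of the KO-labelled sum. The part of these markers in the changes of Irak2, Irak3 and the TRIF adaptors was not tested.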

How the data were processed

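Libraries came from total RNA by the TruSeq Stranded mRNA protocol, per the labels' protocols. The deposited values are raw counts per gene and library, which the authors left without normalization. Per the submitters' processing notes, FastQC 0.11.7, HISAT2 2.0.5 and featureCounts 1.5.2 were used with mm10; the annotation is not given in the sources used here, nor is the strand setting, so reads from overlapping genes on the other strand may be included (Myd88, Irak2, Irak3, Irak4 and Tirap have such a neighbour). Groups came from sample titles. Counts were tested in R 4.3.3 with edgeR 4.0.16 (TMM, default low-count filter, robust quasi-likelihood fit of KO-labelled against WT-labelled, Benjamini-Hochberg adjustment at 0.05 over all tested genes), after a check on simulated data. Intervals are 95% t intervals from the fit's standard error. Exonic lengths and positions came from GENCODE M21 and promoters from RefSeq (GRCm38.p6). Profiles used log2(CPM + 0.5). Shares were compared by exact permutation in scipy 1.17.1 under Python 3.11.15. Of the marker and pathway symbols, Adgre1 was found under an older name and Ly6g was not found. Lists shared some genes, which were counted in each. These were Sigirr (receptors and other adaptors), Il1b (IL-1 family and early response genes) and Irf7 (kinase steps and TRIF-linked genes). Cd14 was both a receptor and a monocyte entry, and Flt3 both a progenitor and a dendritic cell entry. The members, lists and tests were chosen with earlier results of these data known. Named genes were all members, up to 4 called genes per pathway list in order of p, and the nearest profiles; further genes are marked or are markers, receptors and partners given as values. Alternatives were other scalings, filters and tools (DESeq2 1.42.0, limma-voom 3.58.1), a block, terms or sums for replicates, and leaving out each library.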

Additional observations from a re-analysis of the deposited data

How the results depend on the processing

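Irak2 and Ticam2 were called under all 19 alternatives, Irak3 under 18, Irak4 under 12, Ticam1 under 6, Irak1 and Peli1 under 1 each (replicates 2 and 3 alone; adjusted p = 0.043 and 0.014), and Myd88, Tirap and Tollip under 0. Leaving out 1 library gave 939 to 2712 genes called higher and 916 to 2568 lower, and 2 to 4 of the 10 members higher with 1 lower each time; the shares of all genes called ran from 15.0% without KO-labelled replicate 2 to 42.8% without WT-labelled replicate 1. Replicates 2 and 3 alone gave 3149 genes higher (25.8%) and 3309 lower (27.1%), together 52.9% of all genes tested, with 3 members lower. At an unadjusted p under 0.05 by edgeR, 4 members were higher and 3 lower in that setting. With KO-labelled replicates 2 and 3 summed, 982 genes were higher (7.82%) and 945 lower (7.53%), with 2 members higher. With replicates 2 and 3 summed in each group, 543 were higher (4.32%) and 518 lower (4.12%). This gave 2 members higher and 0 lower by edgeR (1 at an unadjusted p under 0.05). Deviations of libraries with the same replicate number correlated at −0.006, −0.055 and 0.052. Not every library correlated best with its own number. Replicate 1 of both groups nevertheless shared a high Gapdh level (2716 CPM in KO-labelled and 2645 CPM in WT-labelled cells), so a link between the 2 replicate 1 libraries is not excluded by these correlations. With the replicate block, 989 genes were higher (8.16%) and 1034 lower (8.53%), with 2 members higher, and Irak4 and Ticam1 did not pass (adjusted p = 0.088 and 0.13). Myd88 changed sign with upper-quartile scaling (−0.019), library totals (−0.021) and replicates 2 and 3 alone (−0.17), and ran from −0.14 to 0.10 when 1 library was left out; it was never called. Without division by length the Irak2 share differed by 22.3 in place of 26.0 percentage points. The causes were not tested. Depth limits the WT-labelled Ticam2 level, which rests on 30 to 52 reads per library.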

Other observations

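The 3 Pellino genes differed. Beside Peli1, which did not pass, Peli3 had 3.79, 2.64 and 2.45 CPM in KO-labelled libraries and 0.17, 0.57 and 0.65 CPM in WT-labelled libraries (log2 fold change 2.69, SE 0.54; adjusted p = 0.011 by edgeR). Peli2 had 0.41, 0.087 and 0.24 CPM in KO-labelled libraries and 1.96, 6.66 and 4.32 CPM in WT-labelled libraries (log2 fold change −4.11, SE 0.69; adjusted p = 0.0055). All KO-labelled values lay above all WT-labelled values for Peli3 and below them for Peli2. Both were singled out after their values were seen.

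Further regulators singled out in the same way were Tax1bp1, an adaptor that carries A20 to its substrates, and Tank, an adaptor of the kinase TBK1. Tax1bp1 had 390, 396 and 388 CPM in KO-labelled libraries and 1235, 1017 and 1040.4 CPM in WT-labelled libraries (log2 fold change −1.49, SE 0.16; adjusted p = 7.6e-04 by edgeR). Tank had 80.7, 66.5 and 62.7 CPM in KO-labelled libraries and 29.7, 33.2 and 31.7 CPM in WT-labelled libraries (log2 fold change 1.15, SE 0.14; adjusted p = 0.0013).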
